A study of Mus musculus with 4 samples.

Results

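CpG-rich promoters without H3K4me3 were studied in mouse hippocampus. A gene belonged to this set if it was an autosomal protein-coding gene of GENCODE M21 with a CpG-rich start and no H3K4me3 peak there. CpG-rich meant a CpG observed/expected ratio of 0.60 or more and a GC content of 55% or more in the mm10 sequence 500 bp either side of the gene 5′ end. No peak meant that no peak of the replicated list lay within 1 kb of any annotated transcription start site of the gene. The rule found 157 genes, which was 1.91% of the 8233 CpG-rich autosomal protein-coding genes, out of 20807 autosomal protein-coding genes in all. The members were thus chosen by the measured peaks, and every count of peaks at their promoters describes the choice.

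H3K4me3, trimethylation of lysine 4 on histone H3, was profiled by ChIP-seq in hippocampus tissue of adult male mice aged 2 months. The mice were B6CASTF1/J, a first-generation hybrid of C57BL/6J and CAST/EiJ. There were 2 pools of 7 biosamples each. Pool D served as biological replicate 1 and pool C as biological replicate 2, and each gave 2 technical replicate libraries that shared 1 alignment and 1 peak list. No treatment was compared, and a pool is 1 value per promoter, so the differences described here have no test.

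H3K4me3 marks the start sites of genes that are active or ready for transcription. CpG islands attract the enzymes that place it, because these carry domains that bind unmethylated CpG dinucleotides, and most CpG-rich promoters hold the mark in any tissue. Known exceptions are developmental regulators covered by polycomb complexes and germ cell genes kept silent in the body's other cells. None of these other layers was measured here.

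The promoters of 6 members and of 1 related gene with a peak are printed so that the CpG content behind the choice can be seen. Each runs 5′ to 3′ on the gene's strand from 250 bp before the gene 5′ end to the 50 bp that begin with it, in GRCm38 (RefSeq assembly sequence), with every CpG in capitals. The member of highest CpG observed/expected ratio with little repeated sequence stands for each of 6 gene lists, and Lin28b is the gene with a peak chosen the same way from the germ cell list. Barhl2 lies on the minus strand at chr5:106458117-106458416, Foxd3 on the plus strand at chr4:99656049-99656348, and Bhlhe23 on the minus strand at chr2:180776851-180777150. Bmp8b lies on the plus strand at chr4:123104915-123105214, Hsf5 on the plus strand at chr11:87616914-87617213, and Kcnk15 on the plus strand at chr2:163853401-163853700. Lin28b lies on the minus strand at chr10:45486346-45486645.
Barhl2: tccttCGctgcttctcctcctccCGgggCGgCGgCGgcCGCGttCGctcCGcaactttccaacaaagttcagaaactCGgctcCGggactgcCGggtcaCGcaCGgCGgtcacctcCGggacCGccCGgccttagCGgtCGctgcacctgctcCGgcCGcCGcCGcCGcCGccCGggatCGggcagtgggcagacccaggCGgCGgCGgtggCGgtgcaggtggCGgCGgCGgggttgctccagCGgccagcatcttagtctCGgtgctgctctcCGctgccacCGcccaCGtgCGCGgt
Foxd3: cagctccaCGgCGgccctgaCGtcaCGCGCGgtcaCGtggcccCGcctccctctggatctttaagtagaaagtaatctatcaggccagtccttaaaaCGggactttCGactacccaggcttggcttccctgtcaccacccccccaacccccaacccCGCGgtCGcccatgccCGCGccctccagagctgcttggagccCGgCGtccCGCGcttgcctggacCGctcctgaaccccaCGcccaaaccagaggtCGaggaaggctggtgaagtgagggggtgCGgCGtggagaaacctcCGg
Bhlhe23: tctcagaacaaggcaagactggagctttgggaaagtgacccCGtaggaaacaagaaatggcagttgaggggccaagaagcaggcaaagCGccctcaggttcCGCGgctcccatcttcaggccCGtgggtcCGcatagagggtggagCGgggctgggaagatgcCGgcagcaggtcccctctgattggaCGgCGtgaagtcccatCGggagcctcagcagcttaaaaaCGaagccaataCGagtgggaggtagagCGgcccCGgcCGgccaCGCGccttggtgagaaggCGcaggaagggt
Bmp8b: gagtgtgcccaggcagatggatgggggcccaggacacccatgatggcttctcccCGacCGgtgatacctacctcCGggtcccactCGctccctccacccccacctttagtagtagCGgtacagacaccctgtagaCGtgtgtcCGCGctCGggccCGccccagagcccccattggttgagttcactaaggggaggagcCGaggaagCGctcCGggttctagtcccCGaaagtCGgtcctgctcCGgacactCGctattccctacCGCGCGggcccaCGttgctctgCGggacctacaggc
Hsf5: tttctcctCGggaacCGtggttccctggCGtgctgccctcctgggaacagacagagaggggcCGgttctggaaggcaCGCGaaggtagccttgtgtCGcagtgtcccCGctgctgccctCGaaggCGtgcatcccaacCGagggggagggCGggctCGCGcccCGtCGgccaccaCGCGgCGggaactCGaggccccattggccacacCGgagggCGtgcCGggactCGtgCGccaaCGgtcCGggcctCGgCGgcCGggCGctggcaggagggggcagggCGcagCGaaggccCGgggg
Kcnk15: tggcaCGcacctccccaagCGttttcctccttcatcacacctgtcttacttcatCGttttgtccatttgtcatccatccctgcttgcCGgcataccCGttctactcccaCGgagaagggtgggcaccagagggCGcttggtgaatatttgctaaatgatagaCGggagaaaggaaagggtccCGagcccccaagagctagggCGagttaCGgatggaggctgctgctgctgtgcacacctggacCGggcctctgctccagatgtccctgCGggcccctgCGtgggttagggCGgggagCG
Lin28b: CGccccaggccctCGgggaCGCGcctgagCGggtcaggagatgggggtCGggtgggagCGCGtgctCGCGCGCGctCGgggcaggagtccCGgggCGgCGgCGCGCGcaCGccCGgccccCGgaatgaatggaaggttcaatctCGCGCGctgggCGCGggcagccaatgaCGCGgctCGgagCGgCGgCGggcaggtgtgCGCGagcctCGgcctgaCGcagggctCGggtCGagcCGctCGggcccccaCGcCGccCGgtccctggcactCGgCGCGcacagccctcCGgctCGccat
The Barhl2 stretch holds 42 CpGs and that of Kcnk15 holds 16. Barhl2, a homeobox factor of retina and spinal cord neurons, had 116 CpGs in its 1 kb window, with a ratio of 1.07 and a GC content of 65.9%. Lin28b, an RNA-binding protein of stem and germ cells, had 153 CpGs and carried a replicated peak of 1840 bp with a signal value of 6.34, the authors' score for the peak. Hsf5, a member from the same list, had 94 CpGs and a ratio of 0.788.

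Over all autosomal protein-coding genes, 66.7% had a replicated peak within 1 kb of a start site, and over the CpG-rich ones 98.1% did. For the list of pool D alone these shares were 65.5% and 97.5%, for that of pool C 68.2% and 98.4%, and for the list called on both pools together 67.6% and 98.3%. The labelled tissue was checked on marker genes. All 5 markers of neurons, all 5 of excitatory hippocampal neurons, all 4 of astrocytes and all 3 of endothelium had a replicated promoter peak. So did all 3 of interneurons and all 4 of oligodendrocytes, of which pool D had a peak at 2 and 3. Since 66.7% of all autosomal protein-coding genes had such a peak, these hits say little about the tissue. Of the 3 microglia markers, Cx3cr1 had none, while pool C had a peak at all 3 and pool D at 0. Of 4 markers of other tissues (Alb, Cdx2, Myod1 and Ddx4), 0 had a peak in any of the replicated, pool D and pool C lists. Cdx2 and Ddx4 are themselves members, so the rule fixed their lack of a replicated peak and they check nothing.

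The 157 members fell into 5 exclusive classes. Homeobox genes made up 49, other developmental regulators and signals 16, germ cell and meiosis genes 15, and genes outside these lists 37. The remaining 40 had a 1 kb window in which 50% or more of the 32-base words occur elsewhere in the mouse assembly, here called repeated sequence. Members made up large shares of the homeobox and germ cell lists, and from 4.82% to 11.8% of the other developmental lists. Of the 120 CpG-rich homeobox genes 40.8% were members, and of the 34 CpG-rich germ cell genes 44.1% were, beside 1.91% of all CpG-rich genes. Of 6632 CpG-rich genes in no list, 40 were members, which was 0.603%. The lists were drawn up with earlier results of these data known, so these shares are descriptions and test nothing.

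**Figure D1:**
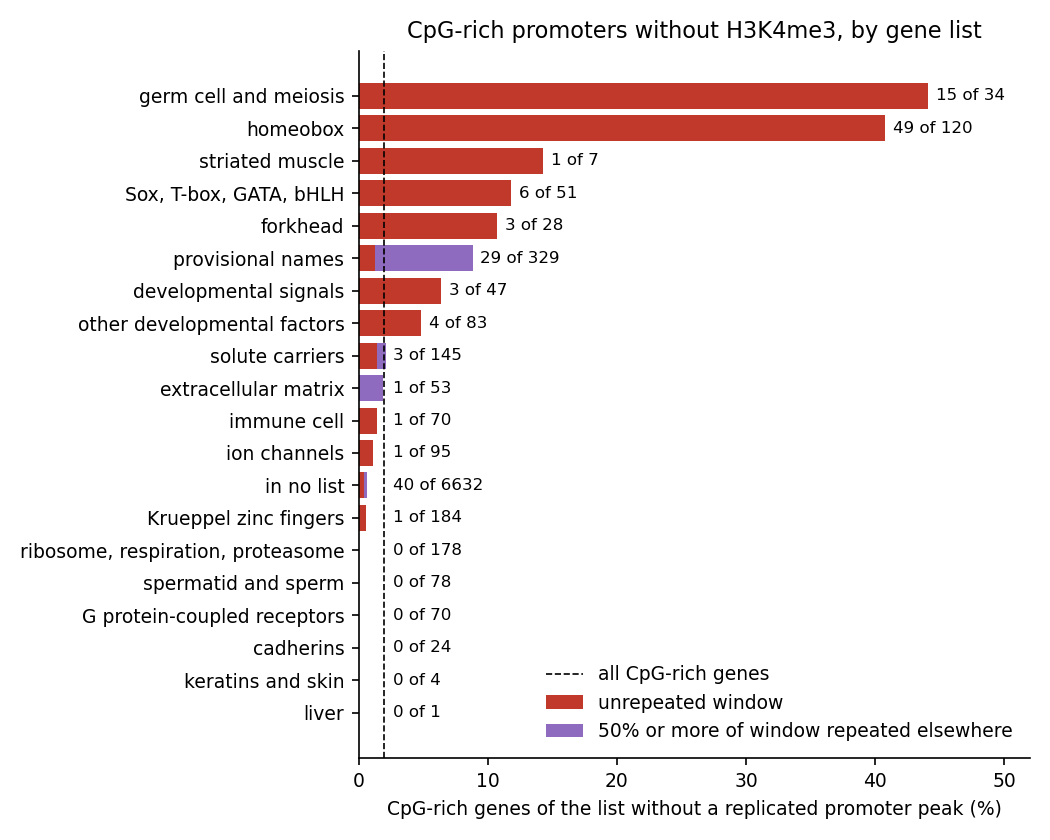
Share of the CpG-rich genes of each gene list that had no replicated promoter peak (horizontal axis, percent), with the number of members and of CpG-rich genes beside each bar; the dashed line is the 1.91% over all CpG-rich genes. Germ cell (44.1%) and homeobox genes (40.8%) reach farthest, and most of the genes with provisional names are repeated sequence (purple).

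Homeobox genes encode transcription factors that set body axes and cell identity in the embryo. Of the 49 homeobox members, 15 lie in the Hox clusters and 34 outside them. Of 20 CpG-rich Hox genes, Hoxa6, Hoxa11, Hoxa13, Hoxb7, Hoxb9, Hoxc8, Hoxc9, Hoxc11, Hoxc12, Hoxc13, Hoxd3, Hoxd4, Hoxd8, Hoxd10 and Hoxd13 were members. Hoxa4, Hoxa7, Hoxd1 and Hoxd9 were among those that carried a peak. Both CpG-rich Hoxb genes and all 5 CpG-rich Hoxc genes were members.

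In several small homeobox families no CpG-rich gene had a replicated peak. These were Tlx1, Tlx2 and Tlx3 of spleen and sensory neurons, Pou4f1, Pou4f2 and Pou4f3 of sensory neurons, the gut factors Cdx1 and Cdx2, Hmx1 and Hmx3 of eye and inner ear, and Otx2 of forebrain and midbrain. Among these small families, pool C alone had a peak at Pou4f2 (−log10 q of 3.44), Pou4f3 (4.39) and Hmx3 (4.39). Otx2 was the only CpG-rich gene of 2 Otx genes. Of 4 CpG-rich Pax genes, Pax2, Pax7 and Pax9 were members and Pax3 carried a peak. Of 7 genes of the Lhx, Lmx and Isl families, Lhx1, Lhx5 and Lmx1b were members, while Isl1, Lhx2, Lhx6 and Lmx1a carried a peak. Members were also Six3 and Six6 (2 of 5 in their family), 2 of 6 Irx genes (Irx1, Irx4), 3 of 8 Nkx genes (Nkx1-1, Nkx2-4, Nkx3-2) and 1 of 5 Dlx genes (Dlx3).

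In other homeobox families every CpG-rich gene carried a replicated peak. All 3 Pou3 genes, all 4 Meis, Pbx and Pknox genes (Meis2, Pbx3, Pknox1 and Pknox2), and all 6 Cux, Satb and Onecut genes were marked. So were Emx1 and Emx2, which pattern the cortex and hippocampus. The homeobox members not yet named were Barhl2, Barx1, Lbx1, Vax1, Dmbx1, Pitx1, Uncx, Prrxl1 and Dbx1. Some homeobox families thus stood wholly on 1 side of the rule, while the Hoxa, Hoxd, Lhx, Pax, Irx, Nkx, Dlx and Pitx genes stood on both.

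The 10 members with most CpGs in the 1 kb window were mainly homeobox genes. Hoxa13, needed for the distal limb, led with 126 CpGs, a ratio of 0.931 and a GC content of 73.8%. Pou4f1 followed with 125 CpGs, and Hmx1, Hoxd13 (digit patterning) and Nkx1-1 had 118 each. Barhl2 had 116, Barx1 (stomach) 113 and Irx1 111. The other two were Skor1, a corepressor of spinal cord neurons, with 113, and Tcfl5, a bHLH factor of spermatogenesis, with 110. All of these lay well above the 77 CpGs of the median CpG-rich gene with a peak.

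Fewer of the other developmental regulators were members. Foxd3 (neural crest), Foxb1 (diencephalon) and Foxl1 (gut mesenchyme) were the members among 28 CpG-rich forkhead genes, or 10.7%. Of 51 CpG-rich Sox, T-box, GATA and bHLH genes 11.8% were members: Bhlhe23 with 99 CpGs, Tbx2 with 94, Gata5 with 69, and T (Brachyury, a mesoderm factor), Tbx20 (heart) and Sox14. Tfap2c, Wt1 (kidney and gonad), Dmrt1 (testis) and Gfi1 (blood) were 4 of 83 other developmental factors, or 4.82%. Secreted signals and antagonists contributed Bmp8b, Wnt3a, a signal of the embryonic cortical hem, and Sfrp5, or 6.38% of 47.

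Germ cell members covered successive steps of meiosis and of small RNA control in the germ line. Sycp1, Sycp2, Sycp3 and Tex12 encode parts of the synaptonemal complex that holds paired chromosomes together. Dmc1, Mei1 and Rnf212 act in meiotic recombination. Ddx4, Mael, Mov10l1, Tdrd1 and Fkbp6 act in the piRNA pathway that silences transposons. Hsf5 is a factor of spermatocytes, Slc25a31 a carrier of ADP and ATP in testis mitochondria, and Utf1 a chromatin factor of stem and germ cells.

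Germ cell members sat nearer to the thresholds than the homeobox ones. Hsf5 had most CpGs (94), followed by Ddx4 (73) and Sycp1 (65), and Sycp3 had the fewest, 46. Their median was 60 CpGs, a ratio of 0.672 and a GC content of 56.7%. The 19 CpG-rich germ cell genes with a peak had a median of 74 CpGs and a ratio of 0.792. They included Dazl, Boll, Stag3, Smc1b and Meiob, but also Lin28b, Trim71 and Zbtb16. Members and these 19 were not matched for how far their expression is limited to germ cells. Of 78 CpG-rich genes of the spermatid and sperm list, 0 were members. The germ cell list was thus divided, while all 78 CpG-rich genes of the spermatid and sperm list carried a peak. This holds for the genes of that list only, since Papolb, Adad1 and other genes of spermatogenesis outside it were members.

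The 37 unrepeated members outside those lists were mixed. Skor1 and Skor2 are corepressors of neurons, Fev a factor of serotonin neurons, Des the muscle filament desmin, Pkp1 a protein of skin desmosomes, Slc5a5 the thyroid iodide transporter, Slc30a2 a zinc exporter, Cyp24a1 the enzyme that breaks down vitamin D, and Igf2bp1 an embryonic RNA-binding protein. A group chosen here after its members were seen, Tcfl5, Rbmxl2, Papolb, D1Pas1, Adad1, Btbd18 and Zfp541, also has known roles or expression in spermatogenesis. Fam83f had 90 CpGs, and the provisional genes 3110070M22Rik and 5730507C01Rik had 108 and 98. The others were Tmem267, Kdf1, C1ql4, Kcnk15, Nags, Prr23a1, Prr23a2, Prr23a3, Sec1, H60b, Raet1e, Tmem54, Trim52, B4galnt2, Ly6g6c, Ptchd3, 4933416C03Rik and 1700067K01Rik. Among 184 CpG-rich zinc finger genes 1 was a member (Zfp541), among 95 ion channel genes 1 (Kcnk15), and among 70 G protein-coupled receptors and 178 ribosomal, respiratory chain and proteasome genes 0.

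Repeated sequence was common among members. It held in 40 of 157 (25.5%), beside 57 of the 8076 CpG-rich genes with a peak (0.706%). In 29 of the 40, every 32-base word of the window occurred elsewhere. They gathered in a few places, with 15 on chromosome 14, 9 on chromosome 4, 5 on chromosome 13 and 4 on chromosome 12. On chromosome 14 members made up 6.25% of CpG-rich genes, but only 4 of its 19 members were unrepeated.

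The copies could often be named. In 30 of the 40 another gene's window shared 50% or more of the words, and in 29 such a partner was itself a member. Entpd4 and Entpd4b had identical windows, as did Slc25a37, a mitochondrial iron carrier, and Gm16867, and Plac9a and Plac9b. A partner with a peak existed for 10: Srp54b, a copy of a signal recognition particle gene, matched Srp54c over its whole window, and both Srp54c and Srp54a carried a peak. Gm13272, Gm13276, Gm13277, Gm13278, Gm13279, Gm13287 and Gm13289 on chromosome 4 each had the other 6 as partners, and their partner Gm13275 carried a peak.

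The histone genes Hist1h2ao, Hist1h2ap, Hist1h2bq and Hist1h2br, Fam177a, Tuft1, Loxl2 and Zar1, an egg factor, were also repeated. The remaining 18 repeated members were BC107364, 1700047I17Rik2, Gm21863, Gm3488, Gm10409, Gm3020, Gm3252, Gm3373, Gm3500, Gm3512, Gm3435, Gm3417, Gm8909, Gm9817, Gm21586, Gm21953, Gm4767 and Gm9780. Whether reads that map to several places were kept is not given in the sources used here, and the part of repeated sequence in the missing peaks was not tested. Without such windows, 117 members remained, or 1.44% of the CpG-rich genes with unrepeated windows, and the homeobox, forkhead and germ cell counts did not change.

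The lists of single pools describe the members further. Pool D had a peak at 0 of the 157 members, a value the rule fixes, since it also had one at 0 of all 6925 autosomal protein-coding genes without a replicated peak. Pool C had a peak at 31 members, or 19.7%, and at 4.46% of the 6768 other genes without a replicated peak. By the rule those other genes all miss the CpG ratio or GC limit, so the groups differ in base composition. The list on both pools together had a peak at 18 members, of which 17 also had one in pool C. C1ql4, a secreted synaptic protein, had one in that joint list without one in pool C. No list had a peak at the other 125 members.

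The pool C peaks at members were short and weak for that list, which the rule itself favours. Members were chosen for having no replicated peak, and the replicated list came from the same libraries. Their median width was 354 bp, with a range of 180 to 1483 bp, beside a median of 940 bp over all pool C peaks. Their median −log10 q, the caller's significance, was 6.06, beside 27.4 over the list, and 18 of the 31 reached 5. Srp54b had the highest value (20.3), followed by Zar1 and Tuft1 (13.8 each) and Gm3417 (12.9), all of them repeated sequence.

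Among unrepeated members Vax1, a homeobox factor of the optic stalk, had the strongest pool C peak, 1483 bp wide with a −log10 q of 12.2. Gata5 reached 9.53, Utf1 8.74, Tbx2 8.26, and Lhx1 and H60b 7.96 each, the last at a start site far from the gene 5′ end. Lhx1, a factor of early neurons and kidney, had a width of 1368 bp. In the joint list the −log10 q was 4.99 at Vax1, 1.76 at Lhx1 and 1.30 at C1ql4. The median over the 18 members with a peak in that list was 2.46, beside 25.25 over the whole list, which the rule favours in the same way. Of these 18 peaks, 2 had a q over 0.05. By class, 8 of the 31 were homeobox genes, 7 other developmental genes, 3 germ cell genes, 7 other genes and 6 repeated. Of the 31, 14 had no peak in the joint list. The pool C list held 34193 peaks and the pool D list 24690, and the part of read depth, which the files used here do not give, was not tested.

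**Figure D2:**
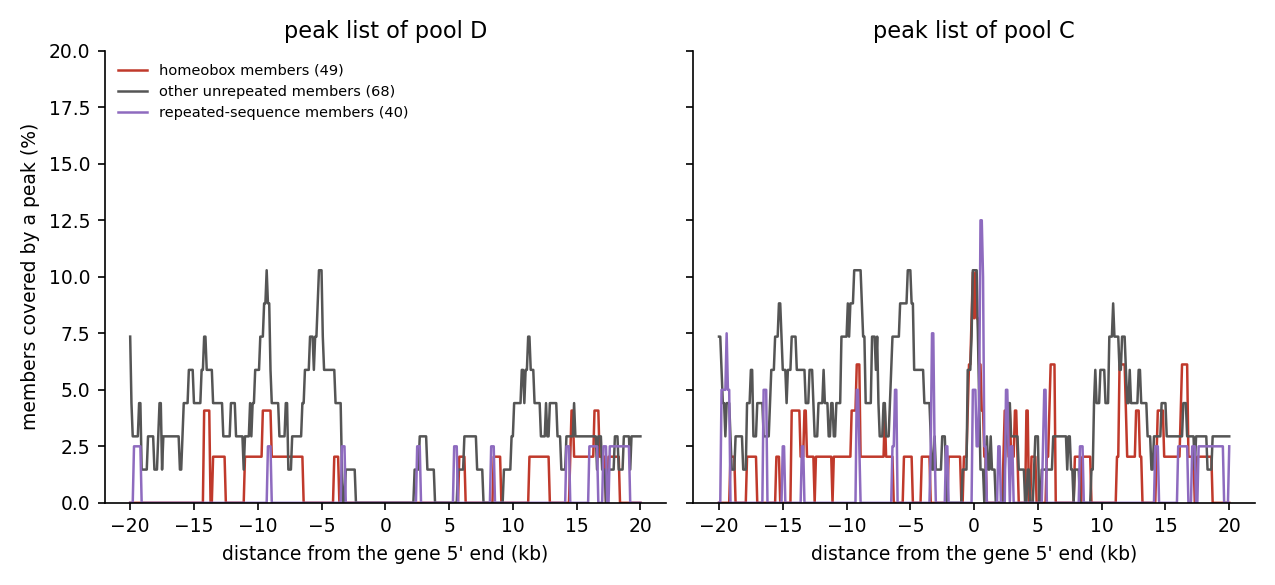
Share of members (vertical axis, percent) covered by a peak of pool D (left) or pool C (right) at each distance from the gene 5′ end (horizontal axis, kb), for homeobox members, repeated members and all other members. In pool D every line is 0 at the 5′ end, and in pool C 8.16% of the 49 homeobox members were covered at the 5′ end itself.

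The nearest replicated peak to a member lay at a median of 30320 bp from its closest start site. It lay 1 to 5 kb away for 14 members (8.92%), 5 to 20 kb for 46, and over 20 kb for 97 (61.8%). Over all 6925 genes without a promoter peak the median was 57920 bp, with 8.22% within 5 kb and 72.8% over 20 kb. Irx1 was far from any replicated peak, at 500371 bp, and Gm21863 the farthest, at 566055 bp. Germ cell members had a median of 19130 bp, with 3 of 15 within 5 kb, and the 37 members outside the lists a median of 19440 bp, with 6 within 5 kb.

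A few members had much peak cover nearby. Replicated peaks covered 23.7% of the 10 kb on either side of the 5′ end of 1700067K01Rik, 19.8% at Sec1, 16.1% at Sycp2, 13.3% at Mov10l1 and 12.2% at Tdrd1. Sycp2, Mov10l1 and Tdrd1 were thus unmarked germ cell genes in marked surroundings. Around Hoxa13, Pou4f1, Barhl2, Foxd3 and Hsf5 the share was 0.

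Members at the edges of the rule are given once. Just inside the ratio of 0.60 lay Ly6g6c (0.6002), Mov10l1 (0.602) and Plac9b (0.602), and just outside lay the unmarked genes Gm13290 (0.598) and Krtcap3 (0.595). Just inside 55% GC lay Gm4767 (55.1%), Hoxd10 (55.2%) and Hoxc12 (55.3%), and just outside lay Helt (54.9%), Rpl10l (54.8%) and Zfp433 (54.7%). The members with the nearest replicated peak were 1700067K01Rik (1504 bp), Fev (1799 bp) and Bmp8b (2397 bp). On the other side of the 1 kb limit stood Foxb2 (922 bp) and Foxe1 (829 bp). The gap in distance was wide, since only 2 members had a peak between 1 and 2 kb, but 43 had a ratio under 0.65.

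Neighbouring genes were sometimes members together. There were 18 runs of adjacent protein-coding genes, holding 41 members, and 5 runs had 3 genes. These were Hoxc13, Hoxc12 and Hoxc11 over 33324 bp, Hoxd8, Hoxd3 and Hoxd4 over 7314 bp, Prr23a1 to Prr23a3 over 22264 bp, Fam177a, Srp54b and 1700047I17Rik2 over 75123 bp, and Gm13276 to Gm13278 over 5841 bp. The 2 Hox runs and the Prr23a run had windows under the 50% limit for repeated words, with 27.4% in Prr23a1, 25.4% in Prr23a2 and 14.3% in Prr23a3. In 5 pairs the 1 kb windows overlapped, so that their 10 members are not separate pieces of DNA. Hoxd3 and Hoxd4 began 2 bp apart and Raet1e and H60b 17 bp apart in the annotation.

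The members' base composition was lower than that of marked promoters but overlapped it broadly. Their median was 65 CpGs with a ratio of 0.71 and 60.9% GC, beside 77, 0.798 and 62.6% for the 8076 with a peak. Homeobox members had a median of 68 CpGs and a ratio of 0.752, and the 71 CpG-rich homeobox genes with a peak 77 and 0.755. Both had nearly the same ratio. Members had 2 annotated transcripts in the median and marked CpG-rich genes 5, and 39.5% against 10.6% had a single one. A gene with more start sites has more places where a peak can count, which the rule itself brings in. Another gene started within 1 kb of 24.8% of members and of 35.2% of marked CpG-rich genes.

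**Figure D3:**
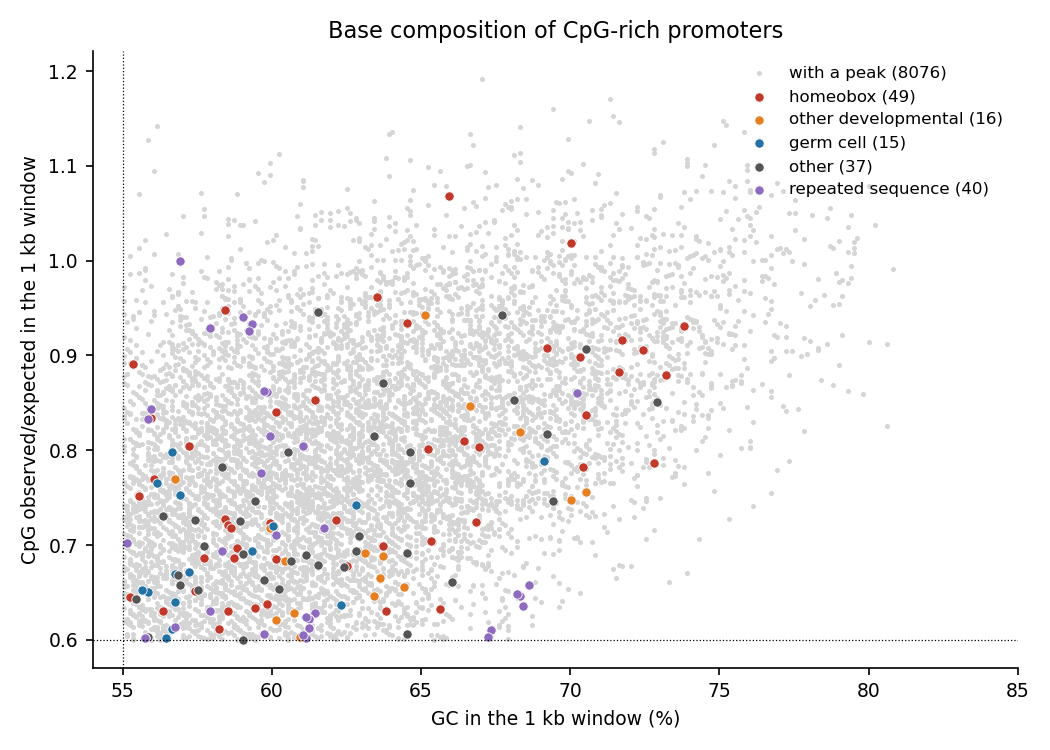
CpG observed/expected ratio (vertical axis) against GC content (horizontal axis, percent) of the 1 kb window, 1 point per CpG-rich gene, members coloured by class over the 8076 genes with a peak in grey; dotted lines are the thresholds. Homeobox members spread over the whole range up to a ratio of 1.07, while germ cell members lie between 0.602 and 0.798.

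Homeobox members sat in wide CpG-rich stretches and germ cell members in narrow ones. At 1 to 2 kb from the 5′ end, the median CpG density over both sides was 3.0 per 100 bp for homeobox members, 2.775 for other developmental members and 0.8 for germ cell members. It was 1.2 over all marked CpG-rich genes. Homeobox genes with a peak also had 3.0, and germ cell genes with a peak 1.1. Nearer to the start, in the 500 bp before the 5′ end, the median was 4.0 for germ cell members and 6.4 for germ cell genes with a peak.

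**Figure D4:**
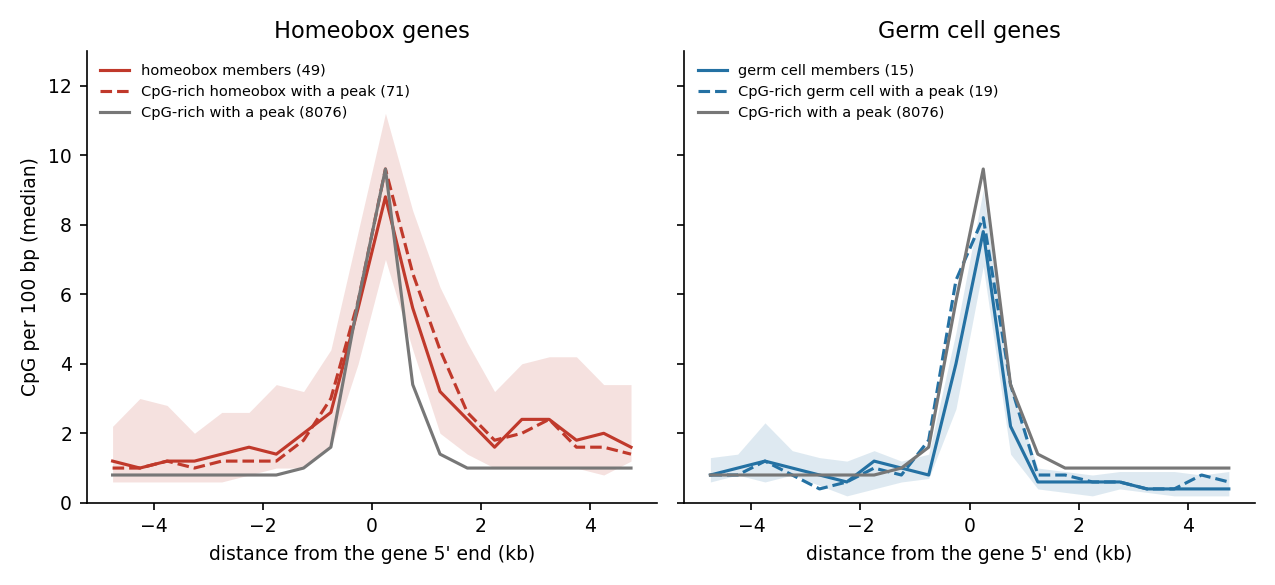
Median CpG per 100 bp (vertical axis) in bins of 500 bp against distance from the gene 5′ end (horizontal axis, kb) for homeobox (left) and germ cell genes (right), solid for members with the interquartile range shaded, dashed for CpG-rich genes of the list with a peak, grey for all CpG-rich genes with a peak. In the first bin after the 5′ end the density is 8.8 for homeobox members, 7.8 for germ cell members and 9.6 for all marked CpG-rich genes, and beyond 1 kb the homeobox lines stay above the grey one.

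Short motifs were counted in the 300 bp stretch of each promoter, on both strands. The ETS motif was searched as CCGGAAG, the motif of NRF1 (nuclear respiratory factor) as GCATGCGC, that of the factor YY1 as AAGATGGC, and the cyclic AMP response element (CRE) as TGACGTCA. The motif of SP and KLF zinc fingers was searched as GGGCGG, the CCAAT box of the factor NF-Y with 1 more base as CCAATC, the E2F6 motif as TTCCCGC, and the E-box of Myc-type bHLH factors as CACGTG. The TATA box was searched as TATAAA on the gene's strand only, starting 40 to 20 bp before the 5′ end. The CRE and E-box read the same on both strands, and matches of different motifs overlapped in 8 members. A match is a string of letters, and binding was not measured.

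Motifs usual at promoters of widely expressed genes were less frequent in members as a whole than in marked CpG-rich genes, but not in every class. The ETS motif occurred in 5.73% of members, 18.3% of marked CpG-rich genes and 11% of all autosomal protein-coding genes. NRF1 occurred in 2.55%, 6.12% and 3.45%, YY1 in 1.27%, 4.45% and 2.93%, CRE in 1.91%, 3.83% and 2.43%, and SP/KLF in 61.1%, 76.1% and 43.7%. Among the 117 members with unrepeated windows ETS stood at 4.27%, NRF1 at 3.42%, YY1 at 1.71%, CRE at 2.56% and SP/KLF at 68.4%. In the 1 kb window CRE stood in 5.13% of these 117, beside 5.09% of marked CpG-rich genes. The others stayed lower there: ETS 15.4% against 30.6%, NRF1 6.84% against 8.67%, YY1 4.27% against 10.3%, and SP/KLF 90.6% against 95.3%. Of the 49 homeobox members, 0 held the ETS, NRF1, YY1 or CRE motif in the 300 bp stretch. Of the 71 marked homeobox genes 4 held ETS, 2 NRF1, 1 YY1 and 2 CRE. Over the whole 1 kb window homeobox members held CRE in 4.08% and marked homeobox genes in 7.04%, beside 5.09% of marked CpG-rich genes. NRF1 stood at 4.08% and 8.45% there, and YY1 at 0 and 5.63%. For ETS the order turned in that window, with 12.2% of homeobox members and 7.04% of marked homeobox genes. The germ cell members went the other way for NRF1: 4 of 15 (26.7%) held it, beside 10.5% of marked germ cell genes, and these 4 were the only members with it in the 300 bp stretch.

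CCAAT occurred in 23.6% of members, 21.1% of marked CpG-rich genes and 17.5% of all genes, and E2F6 in 10.8%, 10.5% and 5.82%. TATAAA occurred in 1.27%, 0.755% and 2.48%. The E-box occurred in 20.4% of members, 11.2% of marked CpG-rich genes and 7.82% of all genes. For the E-box the germ cell class stood highest.

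The E-box stood in 10 of 15 germ cell members (66.7%) and in 2 of 19 marked germ cell genes (10.5%). The E2F6 motif stood in 6 of 15 (40%) and in 2 of 19, and 12 of 15 members held at least 1 of these motifs. E2F6 and the E-box-binding pair MGA and MAX are known parts of a polycomb complex that represses germ cell genes in other cells. In the whole 1 kb window 12 of 15 members (80%) and 6 of 19 marked genes (31.6%) held an E-box, and 8 of 15 (53.3%) and 7 of 19 (36.8%) the E2F6 motif. The groups are small and were not matched for how far their expression is limited to germ cells, and this difference was not tested.

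The E-box matches lay between 221 and 11 bp before the 5′ end, and 8 of the 12 matches lay in the last 100 bp before it. Those are shown for 7 genes, with the match nearest to the 5′ end in capitals and 12 bases on either side, in GRCm38 and on the gene's strand. On the plus strand these are Slc25a31 at chr3:40708766-40708795, Sycp3 at chr10:88459532-88459561 and Tdrd1 at chr19:56826186-56826215. On the minus strand they are Fkbp6 at chr5:135350064-135350093, Rnf212 at chr5:108774982-108775011, Sycp1 at chr3:102936177-102936206 and Tex12 at chr9:50561344-50561373.
Fkbp6: gcgtctatcgatCACGTGccgtttctctcg
Rnf212: tcgcgcgagtctCACGTGggtcctcggtca
Slc25a31: cgcaactggaaaCACGTGttatggtcacat
Sycp1: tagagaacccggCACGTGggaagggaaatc
Sycp3: acgggcatggagCACGTGctaggaggcggg
Tdrd1: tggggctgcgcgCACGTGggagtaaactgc
Tex12: ccgcgagactgtCACGTGgctcgcgcgctg
The capitals are the same 6 letters in each, and the bases beside them differ. The other germ cell members with an E-box were Mael, Mei1 and Mov10l1. For Mei1 the only RefSeq start lay 12480 bp from the GENCODE 5′ end used here. Ddx4, Dmc1, Hsf5, Sycp2 and Utf1 held none in the 300 bp stretch, and of these Ddx4 and Hsf5 held the E2F6 motif.

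**Figure D5:**
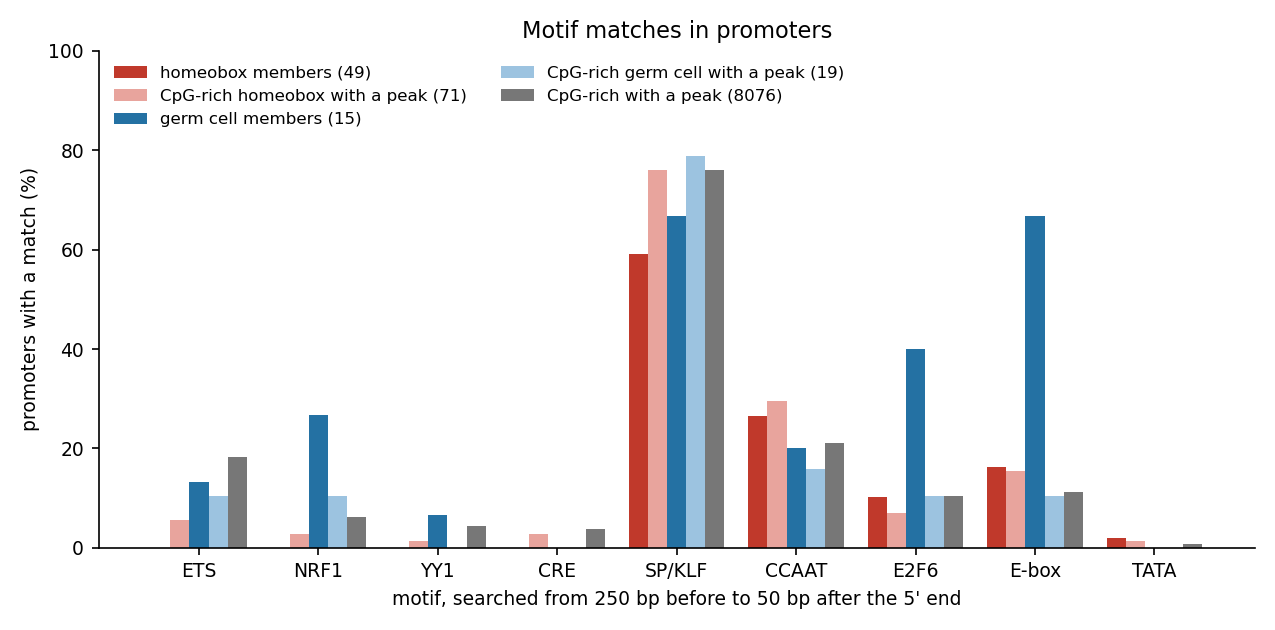
Share of promoters (vertical axis, percent) with at least 1 match of each motif (horizontal axis) from 250 bp before to 50 bp after the 5′ end, for homeobox and germ cell genes without (dark) and with (light) a replicated peak and for all CpG-rich genes with a peak (grey). The germ cell members stand at 66.7% for the E-box and 40% for E2F6, and the homeobox members at 0 for ETS, NRF1, YY1 and CRE.

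Relatives of the members that did carry a peak had weaker peaks than most CpG-rich genes. The strongest replicated promoter peak had a median signal value of 24.4 and a width of 2277 bp over the 8076 marked genes. Over the 71 marked homeobox genes these were 8.46 and 1253 bp, and 44 of the 71 (62%) lay among the 10% of marked genes with the weakest peaks. The median was 10.7 for marked Sox, T-box, GATA and bHLH genes, 11.9 for signals, 13.8 for germ cell genes, 14.2 for forkhead genes and 16.7 for other developmental factors. Their widths did not all lie below the 2277 bp: the median was 2406 bp for Sox, T-box, GATA and bHLH genes and 2344 bp for other developmental factors. Homeobox genes thus ranged from no peak to a weak peak in most cases, with values up to 31.1.

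RefSeq was used to check the start sites. A RefSeq promoter of the same symbol existed for 113 members, and in 79 it began within 100 bp of the GENCODE 5′ end. In some the nearest RefSeq start lay far off, at 12480 bp for Mei1, 10049 bp for Hoxd4 and 10031 bp for Zfp541. It lay at 7226 bp for Six3 and 6175 bp for Otx2. The CpG and motif values of these genes belong to the GENCODE 5′ end. In 0 of the 113 did a replicated peak lie within 1 kb of a RefSeq start. Where the 2 starts lay close together the rule largely fixed this, since members had no replicated peak within 1 kb of any GENCODE start.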

How the data were processed

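H3K4me3 ChIP-seq peak lists from 2 pools of hippocampus tissue (4 libraries) were analysed. Per the labels, the authors aligned to mm10; which peak caller was used, with which settings, is not given in the sources used here. The same holds for reads that map to several places. The deposited lists hold, for each peak, a signal value (a score on the caller's scale, comparable only within a list) and the −log10 of the caller's p and q. The authors called 1 list on pool D, 1 on pool C, 1 on both pools together, and a replicated list. Read depth is not in the files used here, so no floor or interval is given.

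Gene models came from GENCODE M21 and sequence from the RefSeq GRCm38 assembly, and every peak ended within its chromosome lengths. The reference holds the C57BL/6J sequence, and CAST/EiJ alleles were not analysed here. A promoter was marked if a peak shared 1 bp or more with the 1 kb on either side of any start site. Windows were scanned for 32-base words that occur elsewhere, on both strands, with numba 0.67.0. Overlap and word counting were tested on simulated data with known answers. Python 3.11.15, numpy 2.4.6, pandas 2.3.3 and matplotlib 3.10.9 were used.

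The members, gene lists and motifs were chosen with earlier results of these data known. Named genes followed a rule: the 3 members with most CpGs of each list with 5 or more members, the 10 with most CpGs of all members, those nearest each threshold, the 10 with the strongest pool C peaks, the 5 longest runs, the 5 with most replicated peak cover within 10 kb, and the printed promoters. A few genes that the rule would name are not reported here. Other genes were named to account for every member, or after their values were seen. No test was made, since the peaks chose the members and each pool is 1 value. Alternatives changed the peak list, peak threshold, window, start sites, CpG and GC limits, overlap, chromosomes, repeat limit and motif stretch.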

Additional observations from a re-analysis of the deposited data

How the results depend on the processing

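The 157 members stayed within 1.5 times that number under 11 of 13 alternatives, from 117 without repeated windows (a setting chosen after seeing the data) to 205 with the pool D list, which held all 157. The pool C list gave 128, of which 126 were members, and start sites of protein-coding transcripts alone gave 182. A CpG ratio of 0.75 or more left 60 members, with 25 homeobox and 4 germ cell genes, and a GC content of 60% or more left 89, with 27 homeobox, 4 germ cell and 1 forkhead gene. Forkhead members, 3 in the report, numbered 6 with the pool D list and 5 each with peaks of −log10 q of 5 or more, a window of 500 bp, or 200 bp shared. Members with a pool C peak fell from 31 to 18 at a −log10 q of 5 or more. Over the 1 kb window in place of 300 bp, 18.5% of members held the ETS motif (30.6% of marked CpG-rich genes), 86% SP/KLF (95.3%), 35% CCAAT (34%), 22.9% E2F6 (27.4%) and 29.9% the E-box (22.7%). For E2F6 the order of all members and marked genes thus turned, but among the 117 members with unrepeated windows the share was also 27.4%. Technical replicates share 1 list per pool and could not be left out singly. No paired analysis was possible because each pool gives 1 value per promoter and no test was made.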

Other observations

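Chromosome X was outside the rule. It held 172 CpG-rich protein-coding genes, of which 7 (4.07%) had no replicated peak within 1 kb of a start site, beside 1.91% on the autosomes. They were 8030474K03Rik, Fndc3c1, Gm4779, Irs4 (an insulin receptor substrate), Nrk (a kinase), Rhox13 (a homeobox gene of the germ line) and Zxdb. Pool C had a peak at 3 of the 7, and 1 of the 7 had a repeated window.

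Chromosome 16 held 274 CpG-rich autosomal genes and 0 members. Chromosome 2 held 16 members among 664 (2.41%), all of them unrepeated, beside 1.91% of all CpG-rich autosomal genes. Differences between chromosomes were not tested. In the band just under the ratio limit, with 0.55 to 0.60 and a GC content of 55% or more, lay 34 further genes without a replicated promoter peak.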
